A study of Schizosaccharomyces pombe with 72 samples.

Results

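Antisense RNA over long protein-coding genes was examined in fission yeast (Schizosaccharomyces pombe). Each of the deposited tables lists a transcript and a second entry, with the same name and a suffix, for its reverse complement. The members are the reverse-complement entries of genes with a systematic name and a length of 3000 bases or more. They number 368 of the 5151 antisense entries over such genes (7.14%) and of 13994 entries in all, and they hold 22.0% of the antisense length. Their lengths run from 3000 to 14775 bases with a median of 3871.5, and 71 are 5000 or longer. The cut falls within a continuous range, with 36 members within 100 bases above it and 45 entries within 100 bases below it, the longest of these at 2994. All 368 genes are protein-coding, and for 358 the entry has the length of the coding sequence, so untranslated regions were not counted there.

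Strand-specific libraries of polyadenylated RNA were available from 24 groups of 3 replicates (72 libraries) of cells growing exponentially in rich medium. Every strain carries h+ ade6-M216 ura4-D18 leu1-32, and WT has no other change. Experiment A held single deletions marked with kanMX in batch A-b1 (hrp1Δ, hrp3Δ, fft2Δ, fft3Δ, rrp1Δ, rrp2Δ, mit1Δ, swr1Δ and irc20Δ) and with hygMX in batch A-b2 (fft1Δ and snf22Δ). Experiment B held hrp1Δ, hrp3Δ and hrp1Δhrp3Δ (hrp1del::kanMX hrp3del). Experiment C held 2 exchanges of the C-terminus between the paralogs: hrp3-CT(hrp1), with hrp1del::kanMX and the chimera at hrp3, and hrp1-CT(hrp3), with the chimera at hrp1 and hrp3del. Experiment D held hrp1Δhrp3Δ, prf1Δ and hrp1Δhrp3Δprf1Δ. Each genotype is 1 named strain, shared between experiments, and the labels do not say whether the replicates are separate cultures, so p-values measure the spread between these libraries. Mutants were set against the 3 WT libraries of their experiment (in A, of their batch), which they therefore share.

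Hrp1 and Hrp3 are the CHD-family remodelers of fission yeast, ATP-driven enzymes that space nucleosomes along gene bodies. Nucleosomes over a transcribed gene cover sequences at which RNA polymerase II could otherwise start, also on the antisense strand. Prf1 is the ortholog of budding yeast Rtf1, an elongation factor needed for ubiquitylation of histone H2B. A longer gene offers more room for an internal start, and more bases over which a read can be counted.

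Library totals were 470206 to 38590464 estimated counts in A-b1, 5054945 to 14320852 in A-b2, B and C, and 3657 to 6278193 in D. In D, 3 libraries stood apart, with a correlation of the protein-coding profile with the median library of 0.683 (WT replicate 3), 0.567 (hrp1Δhrp3Δ replicate 1) and 0.229 (hrp1Δhrp3Δprf1Δ replicate 2, which held the 3657 counts). The fitted biological coefficient of variation came to 0.649 for D, 0.184 in A-b1 and 0.0742 to 0.124 in the others. The named gene was not lower in sense counts in the A-b1 libraries labelled fft2Δ, rrp1Δ and hrp3Δ. In A-b1 hrp1Δ, hrp1 was among 11 Snf2-family sense entries tested, of which 0 were called lower. In C, hrp1 was at 87.1 ± 29.4 CPM (counts per 1000000 counts of the library; mean ± SD, n = 3) in the libraries labelled hrp3-CT(hrp1) against 90.4 ± 5.63 in WT, and hrp3 was at 83.4 ± 1.58 CPM in those labelled hrp1-CT(hrp3) against 62.3 ± 5.09, although by genotype each strain lacks that gene apart from the C-terminus in its chimera, and reads from the chimera and from the gene cannot be told apart. In the D libraries labelled hrp1Δhrp3Δprf1Δ, hrp3 sense counts were 0, and hrp1 was at 64.6, 0 and 31.6 CPM against 126, 103 and 2.53 in WT, which overlap. These groups are therefore named by their labels.

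In WT, antisense over long genes was low and unevenly spread. The 368 members took 0.119%, 0.134% and 0.112% of all counts in the 3 WT libraries of B, and the means of the 5 WT groups lay between 0.095% and 0.122%. The median member had 0.221 antisense CPM per kilobase in B WT, and its antisense reads were 1.02% to 1.68% of the reads on both strands in the 5 WT groups. The 10 members with the most antisense held 46.9% of the total in B WT. The 8 highest per kilobase over the 15 WT libraries were trs130 (30.7 CPM per kilobase), abc1 (18.3), mug62 (12.5), mms19 (9.61), ric1 (8.26), prp24 (7.66), uso1 (7.27) and wdr7 (6.09). In the annotation 7 of these 8 overlap an opposite-strand coding gene, whose own reads could be counted on the same entry, which was not tested. mug62 and uso1 lie wholly under alp41 and prp3. abc1, a membrane transporter of the ABC family, has no annotated gene on its other strand. Over all members, 117 (31.8%) overlap an opposite-strand coding gene, 82 overlap a noncoding gene there, and 188 (51.1%) overlap neither. The noncoding genes have entries of their own, so reads could be divided between both, which was not tested. Members named below with such a gene include spo3, pds5, rav1, lid2, ria1, cdc28, ucp12, ski2, nte1, cmr2, SPCC18.03, tti1 and hrp1. The shorter genes overlap a coding gene more often (37.7%), and their median GC content is 39.7% against 38.4%.

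The share of counts antisense to long genes separated several mutants from WT. In B it was 0.189%, 0.181% and 0.196% in hrp1Δ, 0.368%, 0.325% and 0.344% in hrp3Δ, with 0.471%, 0.448% and 0.451% in hrp1Δhrp3Δ. No library of one of these groups overlapped another group or WT, and the means were 1.55, 2.84 and 3.75 times that of WT. In the A-b1 libraries labelled hrp3Δ it was 0.383%, 0.372% and 0.403% against 0.108%, 0.090% and 0.0887% in WT (4.04-fold). In C, the libraries labelled hrp1-CT(hrp3) reached 0.558%, 0.531% and 0.554% against 0.121%, 0.110% and 0.1245% in WT (4.62-fold). Those labelled hrp3-CT(hrp1) had 0.137%, 0.133% and 0.136% (1.14-fold). In D, prf1Δ had 0.692%, 0.593% and 0.770% and hrp1Δhrp3Δ 0.451%, 0.494% and 0.404%, against 0.131%, 0.111% and 0.0865% in WT (6.25-fold and 4.10-fold). The triple mutant had 0.606% and 0.602%, and 3.04% in the library of 3657 counts. Its mean was 12.9 times that of WT with the 3 libraries that stand apart and 4.98 times without them.

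Each of these separations, and those of hrp1Δ in A-b1 (0.132% ± 0.0035 SD, 1.38-fold) and snf22Δ in A-b2 (0.102% ± 0.0035 against 0.113% ± 0.0106, lower), gave p = 0.1 in an exact two-sided permutation test. With 3 libraries against 3 this is the smallest p possible, and it was 0.173 after adjustment over the 19 comparisons. The shares of the other remodeler deletions overlapped WT. For a library with a share near 0.1% the counting interval was narrow (0.105% to 0.110%, 95% Wilson, for A-b1 WT replicate 1), and it covers counting error only.

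**Figure D1:**
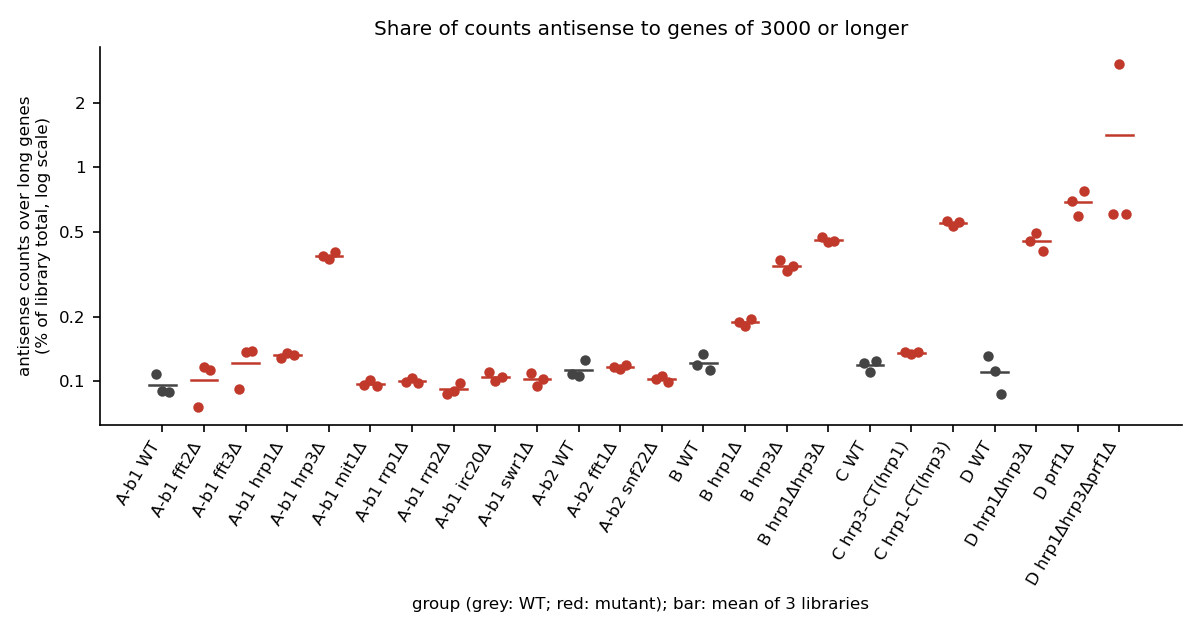
Percentage of each library's estimated counts that fell antisense to genes of 3000 bases or more, on a log axis, for the 24 groups. Points are libraries and bars are means. The WT libraries lie between 0.0865% and 0.134%, those labelled hrp1-CT(hrp3) between 0.531% and 0.558%, and the highest point (3.04%) is the library of 3657 counts.

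Per kilobase, long genes carried less antisense than shorter genes in WT, and the ratio was higher in these mutants. The ratio of long to shorter antisense density was 0.451, 0.463 and 0.452 in B WT, 0.549, 0.518 and 0.537 in hrp1Δ, 0.691, 0.689 and 0.676 in hrp3Δ, with 0.705, 0.684 and 0.681 in hrp1Δhrp3Δ. It was 0.677 ± 0.017 against 0.371 ± 0.020 in the A-b1 libraries labelled hrp3Δ, 0.687 ± 0.00367 against 0.408 ± 0.00592 in hrp1-CT(hrp3), and 0.680 ± 0.00679 against 0.437 ± 0.059 in prf1Δ (n = 3 each). In log2 units the ratio was higher by 0.869 in A-b1 hrp3Δ, 0.588 in B hrp3Δ, 0.598 in hrp1Δhrp3Δ, 0.753 in hrp1-CT(hrp3) and 0.647 in prf1Δ (exact permutation p = 0.1 for each, the smallest possible, and 0.190 adjusted over 19). Among genes with no gene on the other strand the differences were smaller: 0.592, 0.260, 0.0649, 0.249 and 0.619. That of hrp1Δhrp3Δ in B then had an exact permutation p of 0.4. The sense density of long against shorter genes also moved. Relative to it, an alternative chosen after the data were seen, the antisense ratio was higher by 0.34 in B hrp3Δ, 0.39 in B hrp1Δhrp3Δ and 0.75 in hrp1-CT(hrp3), by 0.27 in A-b1 hrp3Δ with overlapping libraries (exact permutation p = 0.4), and −0.67 in prf1Δ, where the WT sense ratios of D ran from 0.0207 to 0.271.

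The share of antisense entries called higher was larger in the bins of members than in the shortest bins, with most of the difference below 3000 bases in B hrp3Δ and hrp1-CT(hrp3) and a further difference among the members in prf1Δ. In B hrp3Δ it was 29.4% of tested entries under 1000 bases, 48.3% from 1000 to below 2000, 72.4% from there to below 3000, and 73.9%, 76.2% and 81.7% in bins that start at 3000, 4000 and 5000. In hrp1-CT(hrp3) the same bins gave 62.4%, 76.7%, 86.7%, 86.9%, 89.4% and 90.8%, and in prf1Δ 25.6%, 45.6%, 58.5%, 62.3%, 63.6% and 76.5%. The log2 ratio to WT of the summed level per kilobase also differed among the members. In B hrp3Δ it was 0.65 in the shortest bin, 1.43 in the last bin below 3000, 1.31 in the first bin of members and 1.91 from 5000, and in prf1Δ the last 3 of these bins gave 2.48, 2.37 and 3.20. A longer entry collects more counts at the same density, and the part of this in the calls was not tested. At a mean log2 CPM of 2 to 3, 94.8% of long and 56.8% of shorter entries were higher in B hrp3Δ, and at 0 to 1 62.5% and 32.7%. In hrp1-CT(hrp3) the same bins gave 90.8% and 77.6%, and 72.7% and 70.1%. These mean levels include the mutant libraries. Among the members themselves, Spearman's rho of the log2 fold change with length was 0.00 in B hrp3Δ, 0.03 in hrp1Δhrp3Δ and 0.06 in prf1Δ, across genes, which are not independent replicates.

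**Figure D2:**
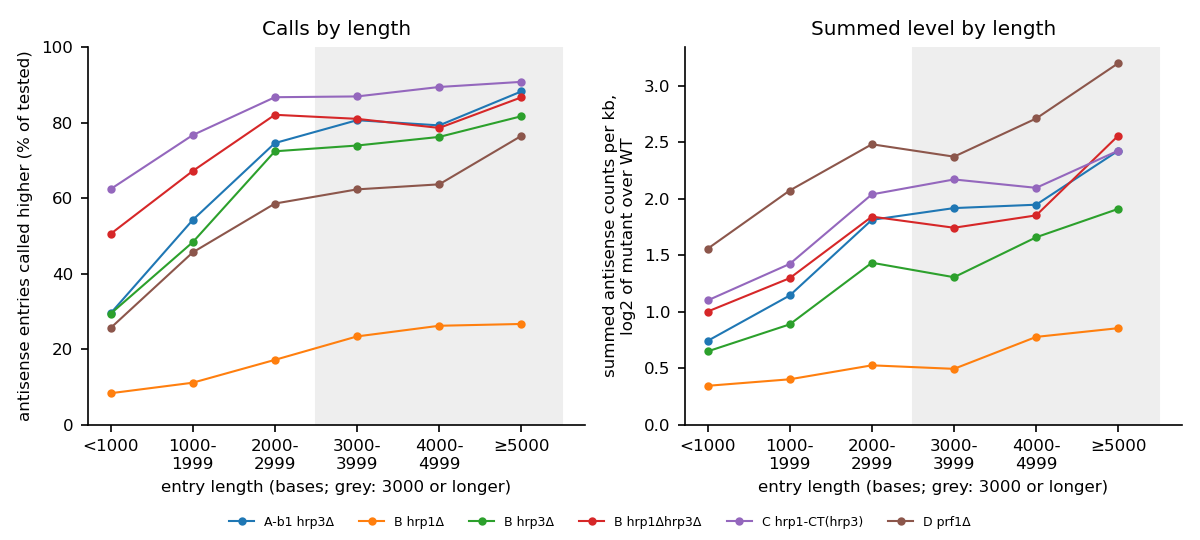
Antisense entries called higher against WT as a percentage of those tested (left) and log2 ratio of summed antisense counts per kilobase, mutant over WT (right), by entry length in bases. Lines are 6 comparisons and the grey area marks members. In B hrp3Δ the left panel goes from 29.4% in the shortest bin to 81.7% in the longest.

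Calls were made with the edgeR quasi-likelihood test where p, adjusted by Benjamini-Hochberg across every entry in the fit, was under 0.05, and all adjusted p-values below come from it. Between 170 and 347 of the 368 members passed the filter on low counts, depending on the experiment. A member that passed only through the group where it was high had to differ, so the counts describe tested members. The same limit applies to the calls and adjusted p-values of members at or near 0 in WT, such as abc2, spo3, cdc28, gdh2 and ria1 in B and cek1 in C. In no experiment were the remaining 10 members tested. In the following, the percentage after each count is the share of all antisense entries tested that were called in the same direction.

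In B, 249 of 328 members tested were higher in hrp3Δ (all antisense entries 48.5%) and 6 were lower (1.93%), with a median log2 fold change of 1.99 against 1.11 over all antisense entries. In hrp1Δ, 81 were higher (12.5%) and 3 lower (1.26%), with a median of 0.59 against 0.38. In hrp1Δhrp3Δ, 267 were higher (65.4%) and 4 lower (3.31%), with a median of 2.59 against 1.73. Tested directly, 212 members were higher in hrp3Δ than in hrp1Δ (35.6%) and 17 lower (5.27%). In the double mutant 77 were higher than in hrp3Δ (13.8%) and 7 lower (1.38%), and the higher ones numbered 48 without hrp3Δ replicate 3, 47 without double-mutant replicate 2 and 51 without its replicate 3. Among members with no gene on the other strand, 129 of 168 tested were higher in hrp3Δ and 135 of 168 in hrp1Δhrp3Δ, with medians of 2.02 and 2.59, against 678 and 965 of 1304 shorter entries of the same kind. The antisense of the median member was 6.59% of both strands in hrp3Δ and 9.97% in hrp1Δhrp3Δ, and the 10 strongest members now held 17.4% of the total in the double mutant.

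The rise in the mutants of B came in different sizes and orders. The RNA helicase gene rqt2 (SPBC13G1.10c, ribosome-associated quality control) had 1.48, 1.97 and 1.91 antisense CPM in WT, 19.6, 24.3 and 24.0 in hrp1Δ, 18.2, 18.2 and 15.6 in hrp3Δ, with 30.3, 35.6 and 35.7 in hrp1Δhrp3Δ. No group overlapped WT, and the log2 fold changes were 3.48 ± 0.18 (SE), 2.98 ± 0.19 and 3.86 ± 0.18 (adjusted p 3.62e-08, 2.47e-08 and 7.44e-10). rqt2 is among the 17 members lower in hrp3Δ than in hrp1Δ (−0.50 ± 0.14). Its sense counts rose by 0.65, 0.30 and 0.49. The RNA helicase gene ucp12 (SPCC895.09c) had 0.684, 0.778 and 0.684 CPM in WT, 3.23, 4.27 and 5.98 in hrp1Δ, 11.7, 8.22 and 7.16 in hrp3Δ, with 18.0, 15.2 and 15.5 in hrp1Δhrp3Δ. Each step of that order was free of overlap.

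tsc2 (SPAC630.13c), which encodes tuberin, a brake on TOR signalling, was among the members with the strongest antisense after loss of Hrp3. Its antisense level was 4.44, 4.37 and 5.06 CPM in WT, 19.3, 16.4 and 14.8 in hrp1Δ, 179, 155 and 173 in hrp3Δ, with 141, 130 and 137 in hrp1Δhrp3Δ. The log2 fold changes were 1.70, 4.90 and 4.51, and in the double mutant it was lower than in hrp3Δ by a called log2 fold change of −0.39. The antisense level of tsc2 exceeded its sense level in hrp3Δ (148 ± 13.2 CPM, against 66.6 ± 4.78 in WT, log2 fold change 0.87).

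Other members had their highest level where both paralogs were deleted. abc2 (SPAC3F10.11c), a vacuolar transporter of glutathione conjugates, went from 0, 0.109 and 0.112 CPM in WT to 0.237, 0.699 and 0.809 in hrp1Δ, 2.20, 2.09 and 2.49 in hrp3Δ, with 6.77, 7.75 and 6.15 in hrp1Δhrp3Δ (log2 fold change 5.87 ± 0.55, adjusted p 7.18e-07). sec73 (SPAC19A8.01c), an exchange factor of vesicle traffic, had 0.135, 0 and 0 CPM in WT, 1.39, 1.35 and 2.35 in hrp3Δ, with 4.13, 4.57 and 4.50 in the double mutant (6.03 ± 0.71), and the last 2 groups were not called different (adjusted p 0.0667). spo3 (SPAC607.10), a sporulation gene, was at 0 in the 3 WT libraries, at 1.62, 0.861 and 0.388 CPM in hrp3Δ (at least 8.13-fold higher) and at 4.38, 6.78 and 5.74 in hrp1Δhrp3Δ (at least 47.8-fold higher). The direct contrast of double mutant and hrp3Δ was called for abc2 (1.52), for spo3 (2.43), for the cohesin subunit gene pds5 (2.41, 3.62, 5.25 and 3.19 CPM against 0.836, 0.866 and 0.456) and for the V-ATPase assembly gene rav1 (2.06, 10.0, 8.03 and 9.39 CPM against 2.11, 1.56 and 2.52).

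Among the 212 members higher in hrp3Δ than in hrp1Δ, several were near WT in hrp1Δ. gdh2 (SPCC132.04c), the NAD-dependent glutamate dehydrogenase, had 7.87, 8.35 and 7.34 antisense CPM in hrp3Δ, 7.39, 4.84 and 5.56 in hrp1Δhrp3Δ, and 0, 0.109 and 0.225 in WT (5.63 ± 0.59 and 5.14 ± 0.60). In hrp1Δ its 0.355, 0.0999 and 0.944 CPM overlapped WT (adjusted p 0.238). The Rho1 exchange factor gene rgf2 and the histone demethylase gene lid2 were also higher in hrp3Δ than in hrp1Δ, at 9.26, 5.89 and 4.57 CPM against 0.355, 0.2 and 0.135 for rgf2 (4.62 ± 0.52) and 3.72, 1.45 and 3.28 against 0, 0.169 and 0 for lid2 (4.84 ± 1.00). The splicing helicase gene cdc28 (SPBC19C2.01) had 5.38, 4.54 and 10.4 CPM in hrp3Δ and 0 in all 9 other libraries of B, the double mutant included (at least 57.6-fold higher than WT). A noncoding gene is annotated opposite cdc28. ria1, which is not among the 212, is a GTPase gene of ribosome maturation. It was at 0 in WT and at 1.90, 3.09 and 1.11 CPM in hrp3Δ, at least 17.3-fold higher (adjusted p 0.0379), and its 3.42, 0 and 1.92 CPM in hrp1Δ were not called (adjusted p 0.0955).

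**Figure D3:**
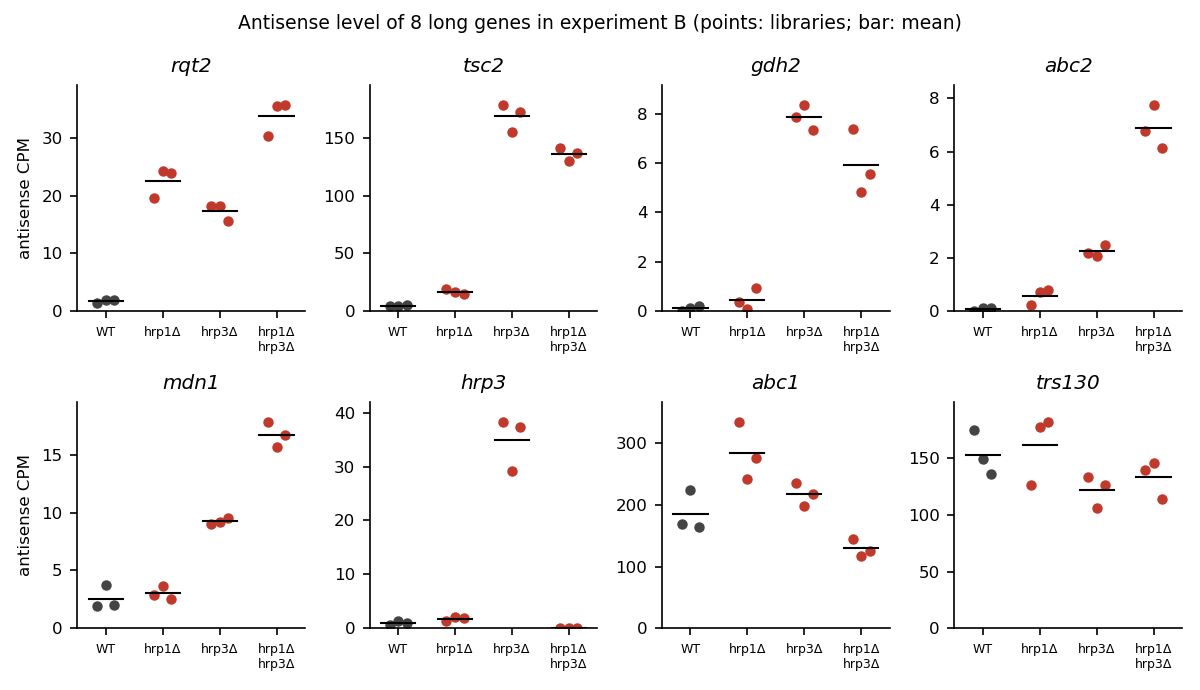
Antisense CPM of 8 long genes in the 12 libraries of experiment B, each on its own axis from 0. Points are libraries and bars are means of 3. rqt2 is high in all 3 mutants, tsc2 and gdh2 mainly where hrp3 is deleted, abc2 and mdn1 most in the double mutant, and abc1 and trs130 are already high in WT.

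Of the 8 members highest in WT, trs130, abc1 and mms19 were lower in hrp1Δhrp3Δ, while uso1 was higher (67.4, 63.4 and 64.9 CPM against 26.7, 27.2 and 21.4, 1.02), as was prp24 (0.26). trs130 (SPCC285.14, a TRAPP complex subunit of vesicle traffic) had 175, 149 and 136 antisense CPM in B WT, 133, 107 and 126 in hrp3Δ (log2 fold change −0.61 ± 0.13, adjusted p 0.00207) and 140, 146 and 114 in hrp1Δhrp3Δ (−0.56 ± 0.13, adjusted p 0.00224), where the libraries overlapped WT. abc1 (SPAC9E9.12c) had 169, 225 and 164 CPM in WT, 334, 242 and 277 in hrp1Δ (0.46 ± 0.11, adjusted p 0.0183), 236, 199 and 218 in hrp3Δ (not called) and 145, 118 and 126 in hrp1Δhrp3Δ (−0.88 ± 0.12, adjusted p 1.93e-05). Among members with lower WT levels, spt16, the FACT histone chaperone gene, lies wholly under nop2 on the other strand and fell in hrp3Δ (7.52, 7.73 and 5.95 CPM against 9.56, 11.5 and 8.65, −0.75 ± 0.16). rad50, the DNA repair ATPase gene, had 0.643, 1.13 and 0.771 CPM against 1.61, 2.16 and 1.56 (−1.29, adjusted p 0.0485, and 0.074 with DESeq2). With scaling factors from sense coding entries alone, 2 members in place of 6 were lower in hrp3Δ, and 2 in place of 4 in hrp1Δhrp3Δ. In hrp1Δ the 3 lower members, named after their values were seen, were rpa2, trm732 and wdr7.

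The A-b1 libraries labelled hrp3Δ were compared with another WT. Of 233 members tested, 191 were higher (all antisense entries 55.1%) and 0 lower (2.80%), at a median log2 fold change of 2.63 against 1.51. DESeq2 also called 0 lower, and 1 had a lower value with an unadjusted p under 0.05. Of 228 members tested in both experiments, 188 were higher in A-b1 and 185 in B. Higher in both were 171, which is 91.0% of those higher in A-b1 and 92.4% of those higher in B. With call rates this high a large overlap arises from the rates alone, and the overlap over all antisense entries was not counted. irs4, a regulator of phosphoinositide signalling in budding yeast, was at 0 in the 3 WT libraries and at 4.85, 7.66 and 8.51 CPM (at least 24.9-fold higher). The ubiquitin ligase adaptor gene btb1 had 12.9, 18.1 and 12.8 CPM against 0.25, 0 and 0 (6.10 ± 0.88). cdc28 was at 0 in WT and at 6.41, 3.91 and 0 CPM, and its call (adjusted p 0.0356) was not made by DESeq2 (0.594). snf21, the ATPase of the RSC remodeler, had 39.0, 40.6 and 38.3 CPM against 0.524, 0.887 and 0.645 (5.91 ± 0.42).

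The members called in the groups labelled hrp1Δ overlapped less between experiments, by count. In hrp1Δ of A-b1, 32 members were higher (8.39%) and 1, tra2, was lower (4.14%), and without WT replicate 1 the counts were 16 and 0, and 20 and 0 without hrp1Δ replicate 1 or 2. Of the 228 members tested in both experiments, 32 were higher in A-b1 and 78 in B. Higher in both were 22, 68.8% of those in A-b1 and 28.2% of those in B, and the overlap over all antisense entries was not counted. The log2 fold changes of the 228 members were barely correlated between the experiments (Pearson's r 0.092, against 0.69 for hrp3Δ). Of the 228, 159 moved in the same direction. rqt2 rose again, with 20.8, 22.6 and 30.6 CPM against 3.5, 6.21 and 1.29 (2.73 ± 0.34, adjusted p 6.04e-06). The acetyl-CoA carboxylase gene cut6 had 2.39, 8.78 and 0.827 CPM against 0.25, 0 and 0.645 (3.83 ± 1.19, adjusted p 0.024), and its log2 fold change was smaller by 4.54 in B (interaction adjusted p 0.0498).

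In C the exchanges are named by label, and the sense counts of hrp1 and hrp3 go against both labels, so the directions below belong to the labelled libraries. In each group the gene further below WT was the one that carries the chimera by genotype, not the deleted one. Whether the labels of these groups are exchanged was not tested, so the directions should not be read as those of a known chimera. In sense counts hrp1 fell in the group labelled hrp1-CT(hrp3) (44 ± 5.7 CPM against 90.4 ± 5.63 in WT, −1.28), and hrp3 in the one labelled hrp3-CT(hrp1) (42.4 ± 7.05 against 62.3 ± 5.09, −0.56). In the libraries labelled hrp1-CT(hrp3), 301 of 341 members tested were higher (all antisense entries 74.8%) and 1, abc1, was lower (1.56%), at a median log2 fold change of 2.55 against 2.04. In those labelled hrp3-CT(hrp1), 19 were higher (4.36%) and 6 lower (1.47%), at a median of 0.23, the same as over all antisense entries. Without WT replicate 1 these counts were 12 and 3, and without WT replicate 2 they were 9 and 5. Tested directly, 286 members were higher in hrp1-CT(hrp3) than in hrp3-CT(hrp1) (69.4%) and 3 lower (2.54%). The log2 fold change of abc1 was −0.28 in hrp1-CT(hrp3), with 48.9, 54.6 and 46.5 CPM against 51.5, 51.6 and 51.4, and it was not called with scaling factors from sense coding entries.

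win1 (SPAC1006.09), a kinase of the stress MAP kinase cascade, had 22.7, 25.6 and 20.9 antisense CPM in hrp1-CT(hrp3), 0.295, 0.310 and 0.672 in hrp3-CT(hrp1), and 0.209, 0.325 and 0.325 in WT (6.09 ± 0.32 for the former). The kinase gene cek1 had 8.52, 5 and 8.63 CPM, 0.590, 0.413 and 0.192, and 0.0698, 0 and 0 (7.23 ± 0.64, adjusted p 1.63e-06), and in hrp3-CT(hrp1) its adjusted p was 0.0521. The cell-surface glycoprotein gene pfl5 was at 0 in WT and at 2.23, 3.08 and 2.51 CPM in hrp1-CT(hrp3), at least 28.4-fold higher. cut4, a scaffold of the anaphase-promoting complex (chosen after its values were seen), was at 165, 154 and 148 CPM against 14.5, 12.5 and 15.5 in WT, and at 13.3, 9.92 and 12.5 in hrp3-CT(hrp1). cmr2, an AMP-binding enzyme, and spo3 also separated the exchanges, with 13.9, 11.6 and 13.7 CPM against 0.187, 0 and 0.261 for cmr2, and 4.13, 5.53 and 3.23 against 0 in all 3 libraries for spo3 (at least 38.5-fold higher).

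Members that moved in hrp3-CT(hrp1) were few. SPCC18.03, a shuttle craft-like transcriptional regulator, had 3.27, 2.07 and 2.51 CPM against 0.349, 0 and 1.19 in WT (2.36 ± 0.62, adjusted p 0.0378), and the lysophospholipase gene nte1 had 4.41, 3.18 and 4.56 against 0.478, 1.72 and 1.56 (1.76 ± 0.44, adjusted p 0.0303). Both were also higher in hrp1-CT(hrp3) (3.84 and 1.65). mis4, the cohesin loader, went in opposite directions: 1.77, 1.14 and 1.82 CPM in hrp3-CT(hrp1) and 33.4, 25 and 22.7 in hrp1-CT(hrp3), against 8.52, 6.61 and 7.27 in WT (−2.25 ± 0.26 and 1.62 ± 0.20). SPAC11D3.15, a 5-oxoprolinase gene with a noncoding gene on its other strand, had 2.86, 3.89 and 1.09 CPM in hrp3-CT(hrp1) against 14.3, 19.1 and 18.0 (−2.73 ± 0.31, adjusted p 0.000301), while its sense counts rose by 0.66. vps10 and pma2 were lower in hrp1-CT(hrp3) than in hrp3-CT(hrp1), by −1.04 and −0.50.

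In D the libraries had the largest spread of the 5 fits. Of 347 members tested, 227 were higher in prf1Δ (all antisense entries 43.4%) and 1, mrc1, was lower (0.656%), with a median of 2.88 against 2.04. In hrp1Δhrp3Δ 176 were higher (36.0%) and 0 lower (0.119%), and in the triple mutant 198 were higher (34.5%) and 0 lower (0.268%). DESeq2 also called 0 lower in both, and at an unadjusted p under 0.05 the counts of lower members were 0 and 2. Without the 3 libraries that stand apart, the higher and lower members of 355 tested were 300 and 3 in prf1Δ, 229 and 1 in hrp1Δhrp3Δ and 276 and 3 in the triple mutant. Between prf1Δ and hrp1Δhrp3Δ, 15 members were higher in prf1Δ (2.77%) and 5 lower (1.94%), and without those libraries 90 and 31. Leaving out single libraries also moved these counts: the higher members fell to 94 in hrp1Δhrp3Δ and 130 in the triple mutant without WT replicate 1, to 87 and 112 without WT replicate 2, and in the triple mutant to 118 and 100 without its replicates 1 and 3. Between prf1Δ and hrp1Δhrp3Δ, 2 to 7 members were called without hrp1Δhrp3Δ replicate 3 or any 1 prf1Δ library, and 35 without hrp1Δhrp3Δ replicate 1. The median of this contrast was 0.21, and −0.15 with scaling factors from sense coding entries. Median log2 fold changes in D moved up by 0.54 to 0.83 against WT under that scaling.

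mdn1 (SPCC737.08), the midasin ATPase of ribosome assembly and the second longest member at 14154 bases, had 102, 88.0 and 132 antisense CPM in prf1Δ, 4.95, 18.7 and 8.90 in hrp1Δhrp3Δ, and 1.18, 0 and 0 in WT (6.89 ± 1.04, adjusted p 0.00122, and 4.19 ± 0.99, adjusted p 0.0099). In B it had 17.8, 15.6 and 16.7 CPM in hrp1Δhrp3Δ against 1.89, 3.72 and 2.02 in WT. not1, the scaffold of the CCR4-NOT deadenylase, was high in prf1Δ with 41.3, 23.5 and 34.1 CPM and near WT in hrp1Δhrp3Δ with 0.450, 0.770 and 0.270, against 0.942, 0.373 and 0 in WT (prf1Δ against hrp1Δhrp3Δ 5.33 ± 0.73, adjusted p 0.00347). The reverse held for the tubulin cofactor gene alp1, at 50.9, 30.0 and 38.3 CPM in hrp1Δhrp3Δ and 6.21, 5.57 and 8.93 in prf1Δ (−3.48 ± 0.75, adjusted p 0.025), and for the repair nuclease gene rad13 (25.7, 32.9 and 43.9 against 11.0, 8.04 and 12.0, −2.47). tti1, a partner of TOR kinase assembly, was at 0 in WT and high in both, at 19.6, 19.2 and 31.8 CPM in prf1Δ (at least 69.8-fold higher) and 7.51, 29.3 and 17.2 in hrp1Δhrp3Δ (at least 53.3-fold). The helicase gene tlh2 rounded to 0 counts in WT and hrp1Δhrp3Δ and had 20.8, 43.7 and 49.1 CPM in prf1Δ, but it is one of 15 members with near-identical copies (13 of them Tf2 retrotransposons), among which the assignment of reads is uncertain. In the triple mutant the calls of med15, spt6 and mok14 rested on the library of 3657 counts (med15 at 2.33, 8477 and 5.79 CPM).

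The deletions of other remodelers had fewer long antisense entries called. In fft3Δ, 34 of 233 members tested were higher (all antisense entries 7.49%) and 4 lower (2.85%), at a median of 0.61 against 0.34, but 16 and 0 without WT replicate 1, 20 and 5 without WT replicate 2, and 20 and 4 without fft3Δ replicate 3. In the libraries labelled fft2Δ, 13 were higher (4.98%) and 6 lower (3.86%), and 5 and 2 without WT replicate 1 or 8 and 3 without fft2Δ replicate 2. In swr1Δ 4 were higher (1.01%) and 1 lower (0.895%), in irc20Δ 4 (1.79%) and 2 (1.62%), in mit1Δ 3 (1.01%) and 2 (0.951%), and in rrp2Δ 2 (0.559%) and 2 (0.615%). pma2, a proton pump gene, and spp42, the central spliceosome scaffold gene, were among the higher members of irc20Δ, mit1Δ and rrp2Δ, which share their WT (named after the values were seen). In rrp1Δ (0.168% and 0.0559%) and fft1Δ (0.0% and 0.0%) 0 members were called by edgeR and by DESeq2, and 9 and 5 had an unadjusted p under 0.05. DESeq2 gave an adjusted p to only 24 members in rrp1Δ, against 337 in fft1Δ, so its count of 0 in rrp1Δ covers few members.

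ski2 (SPCC550.03c), the helicase of the cytoplasmic exosome, recurred in A-b1. Its antisense level was 0.450, 1.65 and 1.21 CPM in WT, 2.33, 5.51 and 6.76 in the libraries labelled fft2Δ, 5.54, 6.14 and 13.9 in fft3Δ, 6.13, 7.40 and 4.05 in hrp1Δ and 12.5, 8.77 and 13.0 in those labelled hrp3Δ (log2 fold change 2.46, 3.29, 2.82 and 3.58). The 4 values share their WT libraries, and none of the 4 groups overlapped it. In fft3Δ the cleavage factor gene cft1 had 3.16, 5.84 and 5.70 CPM against 0.876, 0 and 0 (3.08 ± 0.73) and snf21 had 4.42, 4.32 and 4.28 against 0.524, 0.887 and 0.645 (2.89 ± 0.49). The ribosome biogenesis gene rrp5 rose in the libraries labelled fft2Δ (4.38, 3.89 and 6.55 CPM against 1.5, 0 and 0.645, 2.20 ± 0.53). SPAC11D3.15 fell in fft3Δ (−1.42) and in those labelled fft2Δ (−1.18), where taf2 also fell (−1.53).

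snf22Δ, a deletion of the SWI/SNF ATPase, was the one group of the 19 with more lower than higher members. Of 170 tested, 12 were lower (6.92%) and 6 higher (4.44%). These are 7.06% and 3.53% of the members tested, near the shares over all antisense entries, so the direction is not particular to long genes. SPAC11D3.15 had 1.09, 0.507 and 0.224 CPM against 7.06, 4.25 and 6.01 in WT (−3.04 ± 0.45, adjusted p 0.000188). mok13, an alpha-glucan synthase gene of the cell wall, had 3.77, 3.52 and 4.82 CPM against 15.7, 16.8 and 16.6 (−1.93 ± 0.21, adjusted p 1.37e-05) with sense counts that were not called (0.09). glt1, glutamate synthase, rose in antisense (3.31, 4.95 and 5.19 CPM against 0.709, 0.304 and 0.629, 3.03 ± 0.52) while its sense counts fell by 1.70 (120 ± 5.12 CPM against 408 ± 19.7). The myosin gene myp2 (2.44) and dop1, of vesicle traffic (2.09), were also higher.

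**Figure D4:**
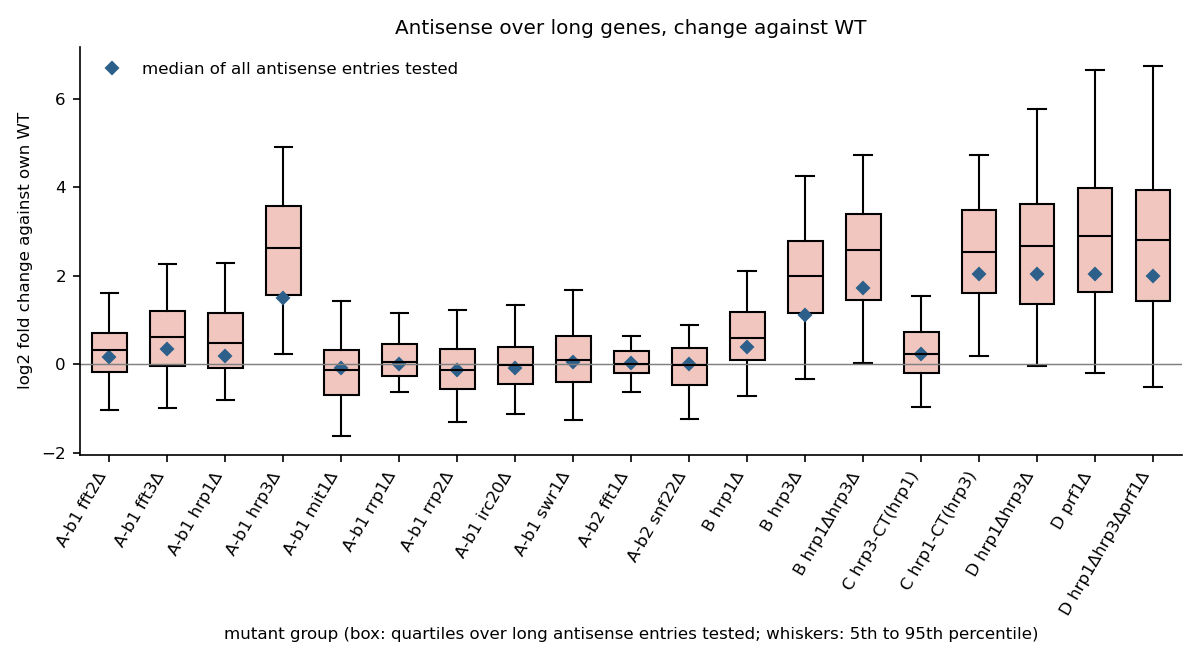
Log2 fold change of antisense over long genes against the group's own WT for the 19 mutant groups. Boxes give the quartiles over members tested with a count in either group, whiskers the 5th to 95th percentile, and diamonds the median of all antisense entries tested. The median of members is 2.63 in A-b1 hrp3Δ, 2.55 in hrp1-CT(hrp3), 2.88 in prf1Δ and 0.23 in hrp3-CT(hrp1). Groups are named by label.

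By the roles of the genes, each list had members called higher in hrp1Δhrp3Δ of B, where 65.4% of all antisense entries and 81.4% of all members tested were. Of the 9 cell wall glucan synthases 5 were tested and 5 were higher, from mok13 (1.30) to mok11 (3.27). Of the 13 PIKK family kinases and TOR partners 12 were tested and 12 were higher, from vps15 (1.07) to cek1 (4.91), a protein kinase gene outside the PIKK family. For motors and actin nucleators the count was 11 of 13 tested, from myo1 (0.57, not called) to pcp1 (4.03), and for RNA polymerases and large spliceosome proteins 10 of 14, with cwf11 at 3.94 and prp22 at −0.70 (not called). For DNA polymerases and chromosome structure it was 15 of 20, with the cohesin subunit pds5 at 5.11 and smc6 at −0.51 (not called). Among membrane pumps and transporters 9 of 14 were higher and abc1 lower, among nucleoporins and vesicle traffic 14 of 16 were higher and trs130 lower, and among multi-domain metabolic enzymes 4 of 7 were higher, with ade3 (3.35) the largest. The counts for metabolic enzymes, pumps, and RNA polymerases and spliceosome proteins lay near or below the share over all antisense entries. The list medians ran from 1.2 (metabolic enzymes) to 3.20 (Snf2-family remodelers), against 2.59 over all members tested. In hrp1-CT(hrp3) the same lists had 6 of 6, 12 of 13, 12 of 13, 12 of 15, 17 of 20, 11 of 14, 15 of 17 and 9 of 9 members higher, in the order above, against 74.8% of all antisense entries and 88.3% of all members tested.

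The Snf2-family remodelers are the list that holds the deleted genes. In hrp1Δhrp3Δ of B 10 of its 11 members were higher, with fft2 at 4.61, and in hrp1-CT(hrp3) 11 of 11. Over the deleted genes the antisense entries went both ways, and the source of these reads was not tested. hrp1 antisense was 11.0, 12.2 and 16.4 CPM in hrp1Δ of B against 1.49, 0.302 and 0.621 (3.87 ± 0.33), with sense counts down by 2.55. hrp3 antisense was 38.2, 29.1 and 37.2 CPM in hrp3Δ of B against 0.539, 1.42 and 0.899 (4.86 ± 0.27), and 0 in the 3 libraries of hrp1Δhrp3Δ. In the A-b1 libraries labelled hrp3Δ it was 37.7, 34.1 and 29.8 CPM against 1.00, 0.887 and 0. In C it was 14.7, 12.5 and 17.1 CPM in hrp3-CT(hrp1) and 17.7, 15.8 and 18.1 in hrp1-CT(hrp3), against 0.838, 0.542 and 1.30, and the hrp1 entry rose only in hrp1-CT(hrp3) of these 2 groups (25.8, 21.1 and 20.6 CPM against 0.379, 0.587 and 0.294).

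Among the other deleted genes, swr1 antisense rose in swr1Δ (17.4, 27.4 and 19.5 CPM against 2.13, 2.66 and 0.645, 3.58 ± 0.45). That of rrp2, where 91.1% of the gene lies under other genes on the opposite strand, fell in rrp2Δ (1.76, 1.77 and 1.43 against 16.6, 23.1 and 15.5, −3.28 ± 0.29). irc20 was at 0 in irc20Δ (at least 69.8-fold lower, from 15.8, 5.32 and 11.0 CPM) and mit1 at 0 in mit1Δ (at least 3.24-fold lower). fft2 had 0.251, 0.182 and 0 CPM in the libraries labelled fft2Δ against 0.628, 0.887 and 1.29 (adjusted p 0.0546), and snf22 was not tested. Leaving out the 8 deleted genes changed no direction of the summed share or of the density ratio.

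The 5 longest members include mdn1, described above. sib1 (14775 bases, ferrichrome synthetase) had 9.16, 12.2 and 9.66 antisense CPM in B WT, 28.1, 23.4 and 29.5 in hrp3Δ, with 30.4, 32.7 and 31.7 in hrp1Δhrp3Δ (1.1 ± 0.14 and 1.24 ± 0.14), and its sense counts rose by a similar 0.96 and 0.98. dhc1 (12591 bases, dynein heavy chain) had 5.06, 4.97 and 2.43 CPM in WT and 20.4, 25.6 and 21.2 in the double mutant (2.08 ± 0.30). tra1 (11100 bases, a SAGA subunit) had 1.55, 1.35 and 1.69 in WT, 6.05, 5.09 and 5.08 in hrp3Δ, with 15.5, 15.7 and 16.5 in the double mutant (3.03 ± 0.22). The glycoprotein gene SPBPJ4664.02 (11916 bases) was never tested, and its highest library held 2.67 CPM.

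Sense counts of the same genes moved in both directions, by experiment. Of 365 sense entries of members tested in B, 13 were higher in hrp1Δ (all coding sense entries 3.12%) and 10 lower (7.23%), 54 were higher in hrp3Δ (6.48%) and 37 lower (30.9%), and 64 were higher in hrp1Δhrp3Δ (7.94%) and 83 lower (42.6%). In hrp1-CT(hrp3), 37 of 366 were higher (7.24%) and 197 lower (49.4%). In the A-b1 libraries labelled hrp3Δ, 160 of 363 were higher (14.0%) and 4 lower (21.0%). In the same batch, with the same WT, 182 were higher (13.4%) and 1 lower (11.2%) in irc20Δ, and 134 higher (14.2%) and 1 lower (12.1%) in hrp1Δ. In snf22Δ of A-b2, 18 of 364 were higher (21.8%) and 134 lower (20.5%). For members with higher antisense, sense was higher, lower and not called in 39, 22 and 188 of 249 in B hrp3Δ, 48, 54 and 165 of 267 in hrp1Δhrp3Δ, 23, 172 and 106 of 301 in hrp1-CT(hrp3), and 0, 0 and 226 in prf1Δ. Few sense entries were called in prf1Δ at all: 1 of 365 was higher (all coding sense entries 0.956%) and 0 lower (3.86%). This was the fit with the largest spread, so these counts do not show that sense was unchanged. Antisense exceeded sense in 6 to 10 members in the WT groups, 15 in hrp1Δ, 19 in hrp3Δ and 21 in hrp1Δhrp3Δ of B, and 12 in hrp1-CT(hrp3).

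**Figure D5:**
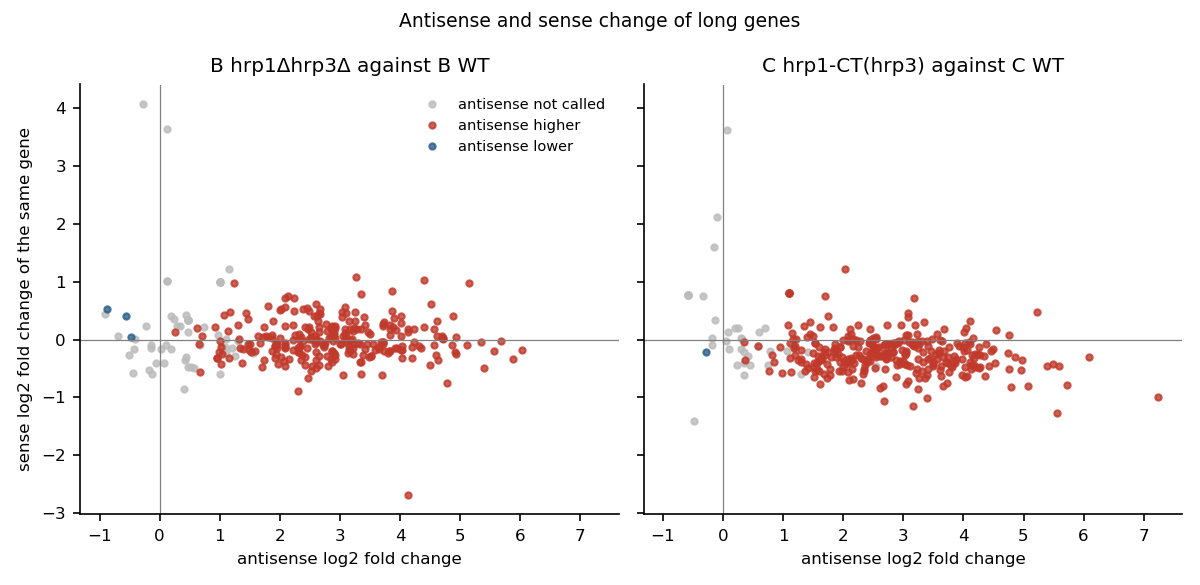
Log2 fold change of the antisense entry (horizontal) and of the sense entry (vertical) of each long gene in hrp1Δhrp3Δ of B (left) and the libraries labelled hrp1-CT(hrp3) of C (right) against WT. Points are members with a count in both groups, coloured by the antisense call. Most points lie to the right of 0, and on the right most lie below 0 in sense, where 197 of 366 sense entries were lower.

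Recurrence was counted across 4 comparisons with separate WT libraries (A-b1 hrp3Δ, B hrp1Δhrp3Δ, C hrp1-CT(hrp3) and D prf1Δ, named by label). Each has the most members called higher against WT in A-b1, B, C or D (191, 267, 301 and 227). High recurrence therefore follows in part from this choice. In all 4, 225 members were tested. Of these 121 (53.8%) were higher in 4, 62 in 3, 18 in 2 and 12 in 1. In the same comparisons, one by one, 55.1%, 65.4%, 74.8% and 43.4% of all antisense entries tested were higher. Their recurrence was not counted, so whether long genes recur more often than other antisense entries was not tested. The 12 members that were higher in none include abc1, mms19, mug62 and wdr7, which are 4 of the 8 highest in WT. Over all 19 comparisons, 143 members were tested in each, and 34 of the 368 were never higher, among them the 10 that were tested in none.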

How the data were processed

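Per the labels, RNA was extracted with hot phenol, enriched for poly(A), and made into directional paired-end libraries. The authors quantified reads with Kallisto against Ensembl transcripts of ASM294v2 and deposited estimated counts and TPM (transcripts per 1000000). Estimated counts were rounded and fitted per experiment, or per batch of A, over all entries with edgeR 4.0.16 in R 4.3.3 (TMM factors, filterByExpr with a minimum count of 10 and total of 15, quasi-likelihood test, prior count 0.125). Factor-free CPM are printed, and log2 fold changes carry TMM factors. A fold against libraries at 0 is a bound from a floor of 3 counts over the group. TPM entered alternatives only. Shares and density ratios were tested by exact two-sided permutation. Names, overlaps and GC came from the RefSeq annotation of ASM294v3, to which all 368 members matched, so no coordinates or sequences are given. The genes named were the deleted ones, the 5 longest, the 8 highest in WT, and, per comparison with more than 10 calls, the largest changes with separate libraries and at least 2 CPM, plus examples from role lists. Members and lists were chosen with earlier results of these data known. DESeq2 1.42.0, the filter, scaling, overlaps, a replicate block and left-out libraries were alternatives. The fit was tested on simulated data.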

Additional observations from a re-analysis of the deposited data

Results flagged for a closer look

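The change of 14 of 330 long antisense entries tested in hrp3Δ differed between A-b1 and B by an interaction term of 1 model over both experiments (edgeR, adjusted p under 0.05). Of all antisense entries tested, 136 of 3067 (4.43%) differed, so the count for long genes is near the share over all of them. The change was larger in B for pdr1, cut4, cdc7 and nup131, and smaller for ubr11, mkh1, spp42, rdp1, tcb3, kap123, prp24, fab1, spt16 and pma2. The largest differences in log2 units were −5.70 (mkh1) and 2.18 (cdc7). In hrp1Δ 3 of 233 entries tested differed (all antisense entries 1.33%), cut6 (−4.54), pma2 (−1.26) and ria1 (12.8, fitted with libraries at 0 and no bound). In the double mutant, compared between B and D, 0 of 325 differed, with 16 at an unadjusted p under 0.05. Of all antisense entries tested there, 0 of 3361 differed, and DESeq2 was not run on this contrast.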

How the results depend on the processing

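With DESeq2 the calls (higher and lower together) in A-b1 went from 33 to 21 in hrp1Δ, from 5 to 2 in mit1Δ and from 4 to 2 in rrp2Δ. It gave an adjusted p to 224, 31 and 21 members there, against 233 tested by edgeR. With no filter they were 25 in place of 38 in fft3Δ and 2 in rrp2Δ, whose median became 0.043 in place of −0.13. With factors from sense coding entries prf1Δ against hrp1Δhrp3Δ in D had 5 calls in place of 20 and a median of −0.15 in place of 0.21, and without the 3 libraries that stand apart it had 121. Replicate numbers gave no steady pairing across experiments. The median residual correlation between same-numbered libraries of different groups ran from −0.080 (D) to 0.026 (C). The closest library of another group had the same number for 18 of 30 libraries in A-b1 and 6 of 9 in C. It did so for 3 of 9 in A-b2, 2 of 12 in B and 3 of 12 in D. The replicate block gave 2 calls in rrp2Δ and 13 in prf1Δ against hrp1Δhrp3Δ, and left 21 of 23 counts within 1.5 times. Divided by the sense density ratio, chosen after seeing the data, the density ratio turned direction in 11 of 19 comparisons: −0.47 (fft2Δ), −0.22 (fft3Δ), −0.32 (A-b1 hrp1Δ), −0.44 (mit1Δ), −0.19 (rrp1Δ), −0.43 (rrp2Δ), −0.54 (irc20Δ), −0.13 (swr1Δ), 0.080 (snf22Δ), −0.67 (prf1Δ) and −0.075 (triple mutant). With no opposite gene the ratio of hrp3-CT(hrp1) was −0.045 in place of 0.037 and the share of rrp2Δ 1.05 times WT in place of 0.958, and it was 1.09 by TPM. Median TPM gave 0.000327 for snf22Δ and no value for 12 comparisons. The causes were not tested.

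Leaving out 1 library at a time gave 7 to 24 calls in fft2Δ, 16 to 29 in fft3Δ, 16 to 28 in A-b1 hrp1Δ, 1 to 10 in irc20Δ, 0 to 10 in mit1Δ, 1 to 7 in rrp2Δ, 3 to 8 in swr1Δ, 52 to 62 between the double mutant and hrp3Δ of B, 14 to 23 in hrp3-CT(hrp1), 87 to 216 in D hrp1Δhrp3Δ, 100 to 225 in the triple mutant and 2 to 35 between prf1Δ and hrp1Δhrp3Δ. Medians ran from −0.18 to 0.24 in mit1Δ and −0.15 to 0.24 in rrp2Δ, density ratios from −0.0027 to 0.070 in rrp2Δ and −0.0023 to 0.034 in fft1Δ, and shares from 0.982 to 1.2 times WT in fft2Δ, 0.982 to 1.09 in mit1Δ, 0.926 to 1.02 in rrp2Δ and 0.999 to 1.09 in fft1Δ.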
